A study of Mus musculus with 24 samples.

Results

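Haemoglobin and red cell genes were followed in brain, heart and skeletal muscle of Eya3-/- mice. Members were all array clones whose platform annotation names Hba-a1, Hba-x, Alas2, Slc4a1, Ank1, Bnip3l or Tspan33, which gave 16 of the 20794 clones on the array. They comprised 6 clones of Hba-a1, 4 of Ank1, 2 of Tspan33 and 1 clone of each other gene. The genes were selected on their measured ratios in these same arrays, above all the low Hba-a1 values of brain and heart and the pattern of Hba-a1 over the mice, so the values are a description and carry no test.

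The mutants were 4 male Eya3-/- mice of 13 weeks, homozygous for a gene trap vector (pT1βgeo, with a promoterless lacZ reporter) in an intron of Eya3. They came from 1 gene trap insertion in Sv129S2 embryonic stem cells and were crossed to C57BL/6. Their RNA was compared with pooled RNA of the same organ from male wild-type mice of the same age, and no treatment is named for either group. The mutants are called mice W, X, Y and Z here, in the order of their animal numbers. Each mouse and organ was hybridised on 2 two-colour cDNA arrays with exchanged dyes, Cy5 and Cy3, which made 8 arrays per organ and 24 in all. A value is the log2 ratio of mutant over wild-type pool, a direction that is likely but not stated, and a mouse value is the mean of its 2 arrays. Zero means that mutant and pool did not differ, and a log2 ratio of 1 is a doubling.

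A cDNA array measures RNA in the whole organ with the blood it holds, and fewer cells of a type and less RNA per cell cannot be told apart in it. The sources used here do not say whether blood was flushed from the organs. Because 1 pool served all mice of an organ, a difference between 2 mice of an organ does not contain the pool, whereas in a shift shared by all 4 mice the mutants and the pool cannot be told apart as its source, and the spread of wild-type mice was not measured.

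Haemoglobin carries oxygen as a tetramer of alpha-like and beta-like chains, each holding a haem group. Hba-a1 encodes an adult alpha chain and Hba-x the embryonic zeta chain. In adults, RNA of the adult chain is made in red cell precursors and persists in young circulating red cells, the reticulocytes. For a while it is among the most plentiful RNAs in blood. Alas2 starts haem synthesis in erythroid cells, Slc4a1 is the anion exchanger band 3 of the red cell membrane, and Ank1 is the ankyrin that ties band 3 to the spectrin skeleton. Bnip3l helps to clear mitochondria from reticulocytes, and Tspan33 is a tetraspanin of red cell precursors. Bnip3l and Ank1 are also used outside red cells, Ank1 with a short isoform in striated muscle.

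Promoters of these genes are known to be read by GATA1, through the letters GATAA, and by KLF1, through CACCC. The 250 bases before the start of 3 members are shown, with these motifs in capitals on either strand, because the globin genes and Alas2 share both motifs although their ratios were not alike in every organ. They are RefSeq sequences of build GRCm38.p6, plus strand, at chr11:32283422-32283671 for Hba-a1, chr11:32276350-32276599 for Hba-x and chrX:150547167-150547416 for Alas2.
Hba-a1: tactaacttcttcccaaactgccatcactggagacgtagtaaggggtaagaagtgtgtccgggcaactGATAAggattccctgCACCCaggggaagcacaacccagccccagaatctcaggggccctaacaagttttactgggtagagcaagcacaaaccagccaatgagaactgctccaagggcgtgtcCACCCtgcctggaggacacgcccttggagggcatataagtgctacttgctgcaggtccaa
Hba-x: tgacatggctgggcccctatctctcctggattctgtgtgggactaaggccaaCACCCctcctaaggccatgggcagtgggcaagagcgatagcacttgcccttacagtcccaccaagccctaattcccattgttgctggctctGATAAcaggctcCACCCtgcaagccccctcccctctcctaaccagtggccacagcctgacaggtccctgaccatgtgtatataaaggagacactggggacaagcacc
Alas2: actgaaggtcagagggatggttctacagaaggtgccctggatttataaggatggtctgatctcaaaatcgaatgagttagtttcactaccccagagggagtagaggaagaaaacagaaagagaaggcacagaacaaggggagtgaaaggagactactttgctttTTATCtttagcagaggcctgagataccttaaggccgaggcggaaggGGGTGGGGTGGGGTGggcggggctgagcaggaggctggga

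Each of these windows held 1 GATAA, which begins 182 bases before the start in Hba-a1, 107 in Hba-x and, as TTATC on the plus strand, 86 in Alas2. CACCC occurred at 2 places in Hba-a1, at 2 in Hba-x and, as GGGTG, at 3 adjoining places in Alas2. Over all 32851 promoters of the table, 22.6% held GATAA and 52.0% held CACCC within windows of the same length, so these motifs are common. TGAGTCA, the core read by NF-E2, was in 4.46% of promoters and in none of the 3 shown, on either strand. The Tspan33 window held none of these motifs. The table had entries for 4 of the 7 member genes, and Slc4a1, Ank1 and Bnip3l were not among them. The window of Hba-a2, a near-identical neighbour of Hba-a1, matched that of Hba-a1 at 247 of 253 aligned positions, and the window of Hba-x at 135 of 268. Both genes are known to encode near-identical alpha chains, so RNA of Hba-a1 and Hba-a2 cannot be told apart here, although no clone sequence was compared. No clone on the array carried the symbol of Hba-a2 or of a beta-globin gene.

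The arrays themselves set the following limits. Between 4.75% and 24.5% of clones had no value on an array, and array medians lay between -0.26 and 0.14. A clone was fitted where at least 3 mice had values on both arrays, which held for 12 of the 16 members in brain, 13 in heart and 11 in muscle. All 6 Hba-a1 clones had values on all 24 arrays, whereas the 4 Ank1 clones had 65 values of a possible 96. The clone of Eya3, the targeted gene, had a mouse value only in heart, at 0.02 in mouse W and -0.38 in mouse Y, and its place relative to the trapped intron is not known, so it checks nothing. With limma over all fitted clones, 0 of 15846 in brain, 0 of 16241 in heart and 0 of 15210 in muscle were called at an adjusted p under 0.10, a percentage of 0 in each organ, and 0 members were called. At an unadjusted p under 0.05, 1480, 848 and 521 clones passed in brain, heart and muscle. SAM, the test named in the study's methods, called 13 clones (0.082%) in brain and 4 (0.0246%) in heart on single arrays and 1 (0.00616%) in heart on mouse means, with 0 members among them. It depended on the random draw of sign flips, and another draw called 27 clones in brain (0.17%), 5 of them members.

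In brain, haemoglobin alpha RNA was lower in all 4 mutants than in the pool. The median over the 6 Hba-a1 clones was -0.58 in W, -1.05 in X, -0.81 in Y and -1.59 in Z. Mouse Z was the lowest and mouse W the nearest to the pool, and each mouse was below 0. The mean over mice was -1.01 ± 0.43 (SD, n = 4), which is 2.01-fold lower in the mutants.

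The clones of the gene gave nearly the same picture. Clone 15359 had -0.43, -1.01, -0.70 and -1.55 in mice W, X, Y and Z. Clone 15423 had -0.57, -1.05, -0.91 and -1.75 in the same order. Clone 15435 had -0.51, -1.05, -0.79 and -1.40. In these 3 clones mouse Z was lowest, followed by X, Y and W. Clone 15520 had -0.59, -1.09, -0.86 and -1.78. Clone 15560 had -0.66, -1.11, -0.84 and -1.51. Clone 19752 had -0.68, -0.94, -0.67 and -1.64, and it alone put W just below Y. All 6 clones were below 0 in all 4 mice, as were 15.7% of the clones with 4 mice in brain, and all 48 single array values were below 0. Within a mouse the 6 clones spanned 0.18 to 0.38, against 1.01 between the medians of mice W and Z.

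In heart, haemoglobin alpha RNA was also lower in the mutants, by less, and the mice stood in another order. The Hba-a1 median was -0.85 in mouse W, -0.19 in X, -0.43 in Y and -0.60 in Z, with a mean of -0.52 ± 0.28 (SD, n = 4), or 1.43-fold lower. Mouse W, nearest to the pool in brain, had the lowest median in heart, a place that depended on the dye. All 6 clones were below 0 in all 4 mice, against a share of 7.55% among all clones with 4 mice, and 44 of 48 array values were below 0.

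Among the heart values, 3 clones followed the order of the median, with W lowest, then Z, Y and X. Clone 15520 had -0.83 in mouse W, -0.17 in X, -0.26 in Y and -0.62 in Z. Clone 15560 had -0.92, -0.19, -0.31 and -0.67 in W, X, Y and Z. Clone 19752 had -0.96, -0.22, -0.30 and -0.58. The other 3 clones had lower values in mouse Y, and clone 15359 also in X and clone 15423 also in Z. Clone 15435 had -0.69, -0.17, -0.54 and -0.51. Clone 15359 had -0.84, -0.51, -0.66 and -0.43. Clone 15423 had -0.85, -0.19, -1.14 and -0.98, the farthest of the 6 from the median. The arrays of mouse Y also differed by dye, with an Hba-a1 median of -0.90 where the mutant was in Cy5 and -0.10 where it was in Cy3. The middle places in the heart order are therefore closer together than the 2 arrays of mouse Y. The end places also depended on the dye. With the mutant in Cy5 mouse Y was below W, at -0.90 beside -0.72. With the mutant in Cy3 mouse Y was above X, at -0.10 beside -0.37.

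In muscle, the mutants differed from one another by more than they differed as a group from the pool. The Hba-a1 median was 1.25 in mouse W and 0.88 in mouse Y, above the pool, and -0.19 in mouse X and -1.57 in mouse Z, below it. The mean of 0.09 ± 1.27 (SD, n = 4) thus stands for no single mouse, and it changed sign when mouse W (-0.29) or mouse Y (-0.17) was left out, and was 0.65 without mouse Z. Mouse W exceeded mouse Z by 2.83 on the log2 scale, a 7.09-fold difference that does not contain the pool.

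Each of the 6 clones showed these differences between mice. Clone 15359 had 1.14 in mouse W, -0.17 in X, 0.91 in Y and -1.51 in Z. Clone 15423 had 1.29, -0.28, 0.84 and -2.07 in W, X, Y and Z. Clone 15435 had 1.31, -0.20, 0.98 and -1.59. All 3 ranked the mice Z, X, Y and W from low to high. Clone 15520 had 1.21, -0.24, 0.78 and -1.55. Clone 15560 had 1.28, -0.11, 0.88 and -1.45. Clone 19752 had 1.23, -0.11, 0.89 and -1.62. These ranked the mice in that order too, and it is the order of the Hba-a1 median in brain. It was found in 6 of 6 Hba-a1 clones in muscle and in 4.54% of the 9697 clones with 4 mice. The order was taken from the median of these same 6 clones, which measure 1 gene, so the 2 shares are a description and not a test. No Hba-a1 clone had all 4 mice on one side of 0 in muscle, where 4.92% of clones had all of them below and 6.93% all of them above. The SD between mice was 1.21 to 1.50 for the Hba-a1 clones in muscle and had a median of 0.49 over all clones with 4 mice. In brain it was 0.37 to 0.51, beside a median of 0.39, and in heart 0.18 to 0.42, beside 0.41.

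**Figure D1:**
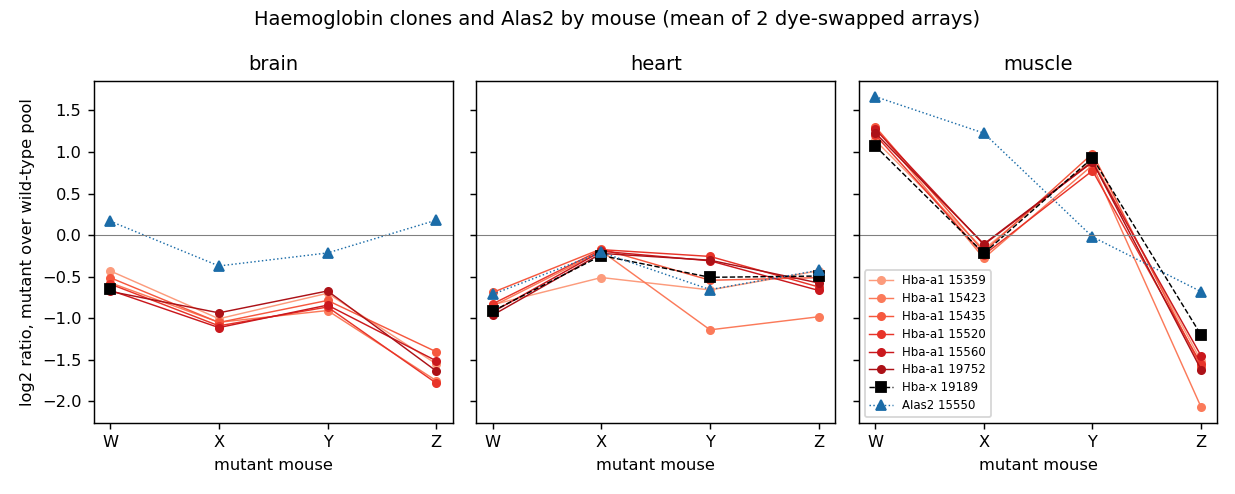
Log2 ratio of mutant over wild-type pool (vertical axis) for each mutant mouse (horizontal axis) in brain, heart and muscle, each point being the mean of 2 dye-swapped arrays. The Hba-a1 clones run together in each organ, below 0 in brain and heart and from 1.25 in mouse W to -1.57 in mouse Z (medians) in muscle, with Hba-x beside them and Alas2 apart from them in brain and in mice X, Y and Z of muscle.

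The embryonic zeta chain gene Hba-x was close to the adult gene wherever it was measured. In brain its clone had values on both arrays of mouse W only, at -0.65. In heart it had -0.91, -0.25, -0.51 and -0.49 in mice W, X, Y and Z, a mean of -0.54 ± 0.28 (SD, n = 4). In muscle it had 1.07, -0.22, 0.93 and -1.20, a mean of 0.15 ± 1.07 (SD, n = 4). All 9 mouse values were on the same side of 0 as the Hba-a1 median. In heart only 3 of 11293 other clones were nearer to the Hba-a1 median in root mean square distance, and in muscle 17 of 9691. Whether the clone measured Hba-x RNA or bound RNA of other globin genes cannot be told apart with these arrays.

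Alas2, the haem synthesis enzyme of erythroid cells, was near haemoglobin in heart but not in brain. In heart it had -0.71 in mouse W, -0.21 in X, -0.66 in Y and -0.42 in Z, with a mean of -0.50 ± 0.23 (SD, n = 4), and all 8 arrays were below 0. There 23 of 11293 other clones were nearer to the Hba-a1 median, at a distance of 0.160 for Alas2. In brain Alas2 had 0.17, -0.37, -0.21 and 0.18, a mean of -0.06 ± 0.28 (SD, n = 4), with mouse Z, the lowest for haemoglobin, the highest for Alas2. In brain 4899 of 12077 other clones were nearer. In muscle Alas2 had 1.67, 1.23, -0.02 and -0.68, a mean of 0.55 ± 1.09 (SD, n = 4). Mice W and Z took the same ends of the range as for haemoglobin, while mouse X was above the pool for Alas2 and slightly below it for haemoglobin, and mouse Y was at -0.02 for Alas2 and 0.88 for haemoglobin. In mouse Z Alas2 was also less low, at -0.68 beside -1.57. The 2 arrays of mouse W in muscle were 0.40 in Cy5 and 2.94 in Cy3, whereas both arrays of mouse X were above 0, at 1.17 and 1.28. Over all 12 values Alas2 was on the side of the Hba-a1 median in 8, and it ranked 503 among 5994 other clones by distance.

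The membrane and skeleton genes did not show the haemoglobin values. Slc4a1, band 3, had -1.67 in mouse W, 2.12 in X and 0.72 in Z in brain, with no value for Y, and was thus on the haemoglobin side in mouse W only. In heart it had 0.69, -1.18, 0.28 and 0.20 in mice W, X, Y and Z, a mean of -0.01 ± 0.81 (SD, n = 4). In muscle it had -0.92, -0.77 and 0.21 in mice W, X and Y. Only 4 of its 10 dye pairs had both arrays on one side of 0, and the arrays of a pair differed by a median of 1.65, so its values are less precise than those of Hba-a1.

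Ankyrin, which binds band 3, was measured by 4 clones that differed from each other. Clone 15419 had -0.34, 0.20, -0.30 and -0.46 in brain, a mean of -0.22 ± 0.29 (SD, n = 4). Its heart values were 0.44 in W, 0.10 in X and -2.27 in Z, the last from arrays at -0.09 and -4.45. Its muscle value was -1.52, in mouse Y. It was below the pool in 3 of 4 brains but on no side in common in heart. Clone 17722 had 1.61 in mouse X, 0.08 in Y and 0.27 in Z of brain, a mean of 0.65 ± 0.83 (SD, n = 3). On Cy5 arrays alone its mean was -0.92, but this includes mouse W, at -3.61, which had no Cy3 value. The Cy5 values of X, Y and Z were 0.45, -0.26 and -0.28. In heart clone 17722 had -0.38 in X and 0.62 in Z, and in muscle no mouse had both arrays. These values lay on the haemoglobin side in 1 of 5 cases. For the other clones the count was 4 of 8 in 15419, 3 of 6 in 3650 and 4 of 5 in 4430. Clone 3650 had 0.55 in W and 2.96 in Z of brain, -0.99, 0.53 and -0.76 in W, X and Z of heart, and -0.37 in X of muscle. Clone 4430 had -0.49 in Z of brain, -1.78 in W and 0.92 in Z of heart, and -0.13 in X and 0.39 in Y of muscle. The clones thus gave opposite signs in the same mouse, as in brain of mouse Z, at 2.96 and -0.49. The arrays behind -0.49 were themselves on both sides of 0, at -1.53 in Cy5 and 0.54 in Cy3.

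Bnip3l, the mitochondrial clearance gene, was below the pool in brain on average, but its values followed the dye. In brain it had -0.42 in mouse W, -0.94 in X and -1.06 in Y, a mean of -0.81 ± 0.34 (SD, n = 3). In heart it had -0.76, -0.29 and 0.04 in W, Y and Z. In muscle it had -0.17, -0.06, 0.41 and -0.13 in W, X, Y and Z. Where the mutant was in Cy5 the brain mean was -1.77, the heart mean -1.07 and the muscle mean -0.69, and where it was in Cy3 it was 0.15, 0.20 and 0.71 in these organs. The mouse values lay on the side of the Hba-a1 median in 8 of 10 cases. However, the Cy5 array was the lower one in 9 of 10 pairs, and both arrays lay on one side of 0 in 2 of 10. The direction of Bnip3l was therefore not settled in any of the organs.

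Tspan33, the tetraspanin, did not lie on the haemoglobin side in all mice of any organ. Clone 4903 had 0.64, -0.67, 0.26 and -0.10 in brain, a mean of 0.03 ± 0.56 (SD, n = 4). In heart it had -0.07 in W, -0.23 in X and 0.32 in Z. In muscle it had -0.11, -2.85, -0.04 and 0.10, with mouse X far below the others. Clone 20402 was measured in fewer mice, with 2.41 in Z of brain, -0.93 in Y and 1.14 in Z of heart, and 0.38 in X and 1.44 in Z of muscle. In mouse Z, the lowest for haemoglobin in brain and muscle, the mean of this clone was above the pool in all 3 organs. Its heart arrays in mouse Z were on both sides of 0, at -0.71 in Cy5 and 3 in Cy3.

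**Figure D2:**
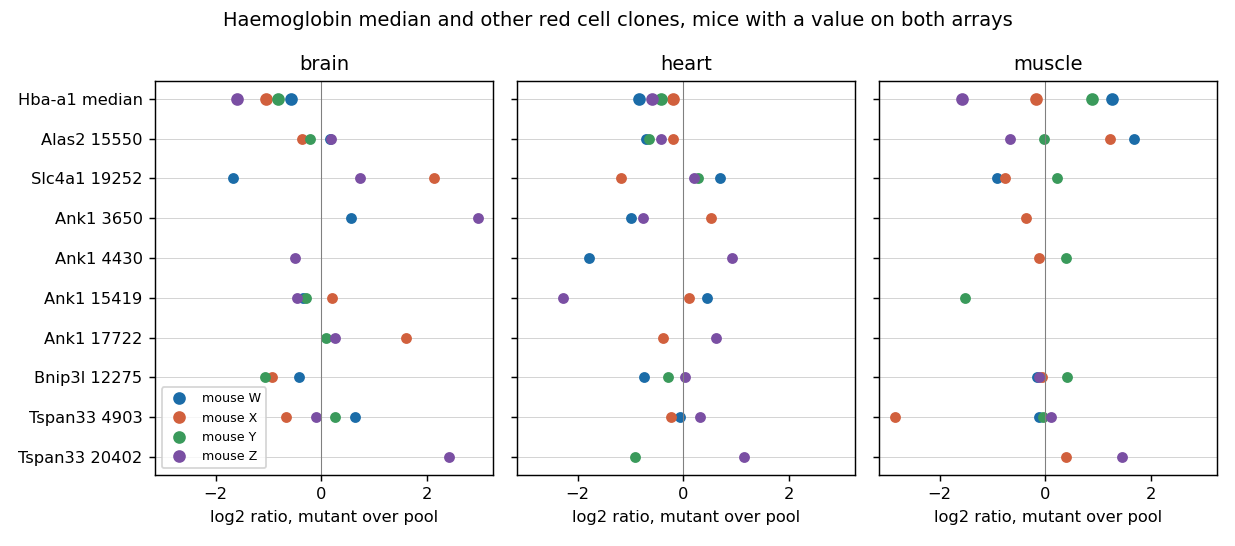
Log2 ratio of mutant over pool (horizontal axis) for the Hba-a1 median (top row) and each clone of the other red cell genes except Hba-x (lower rows), with 1 point per mouse that had values on both arrays. The 4 mice are below 0 for the Hba-a1 median in brain and heart and for Alas2 in heart, while the other clones with 4 mice have mice on both sides of 0.

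Counted together, the 9 clones outside the globin genes had 12 mouse values below 0 and 13 above in brain, 15 below and 11 above in heart, and 13 below and 8 above in muscle. Among the fitted members, globin included, means were below 0 for 9 of 12 in brain, 12 of 13 in heart and 3 of 11 in muscle, beside 52.2%, 48.5% and 48% of all fitted clones. Of these counts below 0, 6 in brain and 6 in heart were clones of Hba-a1, which measure 1 gene. Between organs limma called 0 of 13948 clones for brain against heart, 0 of 12762 for brain against muscle and 0 of 13395 for heart against muscle (a percentage of 0 each), while 1579, 833 and 678 passed an unadjusted p under 0.05.

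The arrays of a mouse were compared next. For Hba-a1, both arrays of a mouse lay on one side of 0 in 67 of 72 pairs, or 93.1%, against 38 of 72 pairs (52.8%) for the members outside the globin genes and 46.8% of 196596 pairs over all clones. The arrays of a mouse differed by a median of 0.20 to 0.45 for the Hba-a1 clones in brain, where the median over all fitted clones was 0.79. They differed by 0.34 to 0.56 in heart, beside 0.81, and by 0.07 to 0.71 in muscle, beside 0.84. Some other members were as repeatable by this measure, with 0.32 for Alas2 in heart, 0.42 in brain and 0.46 in muscle, and 0.26 in brain and 0.27 in muscle for Tspan33 clone 4903. Alas2 had both arrays on one side of 0 in 9 of 12 pairs. Hba-a1 was selected on values away from 0, on which the share of pairs on one side also depends, and signal strength is not given in the files.

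**Figure D3:**
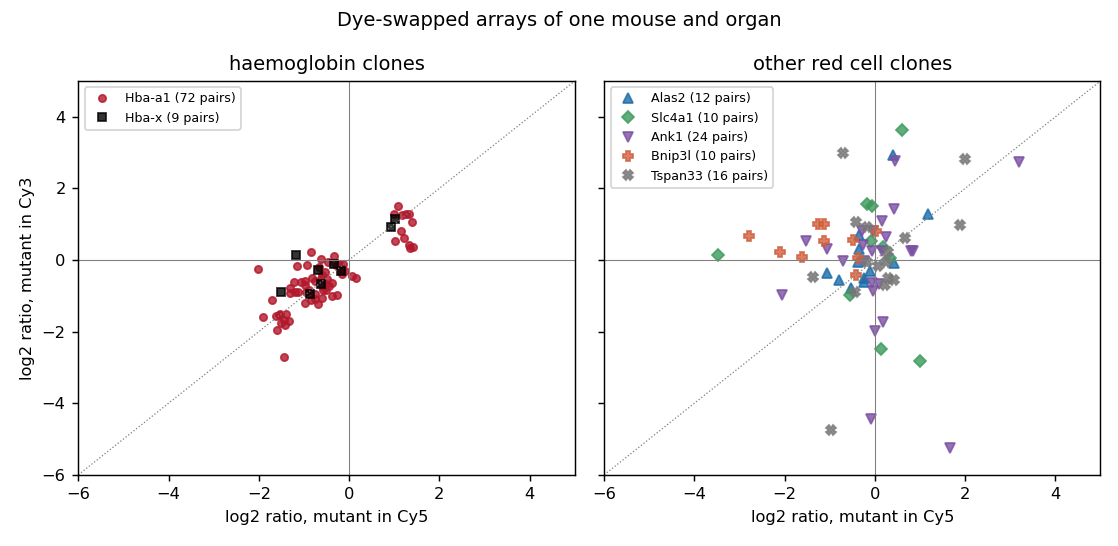
Log2 ratio of the array with the mutant in Cy3 (vertical axis) against that with the mutant in Cy5 (horizontal axis), 1 point per clone, mouse and organ, with the dotted line where both are equal. Hba-a1 has 67 of 72 pairs on one side of 0, whereas the other red cell genes scatter over all quadrants and Bnip3l has 9 of 10 pairs with the Cy5 array lower.

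Some clones not named as haemoglobin had the haemoglobin pattern. Likeness was measured as the root mean square distance from the Hba-a1 median over the 12 values of 4 mice in 3 organs, among 5994 other clones with all 12. The Hba-a1 clones lay at 0.103 to 0.169, apart from clone 15423 at 0.316, and the median of the other clones was 1.05. The 10 nearest other clones lay at 0.118 to 0.170, and 4 of these have no symbol in the platform annotation, including the nearest, clone 15545. The named ones were Rhob, a small GTPase, at 0.122, H3f3a, histone H3.3, at 0.153, Cmtr1, an mRNA cap methyltransferase, at 0.154, Tap1, a peptide transporter of antigen presentation, at 0.154, Slc43a2, an amino acid transporter, at 0.161, and Ucma, a cartilage matrix protein, at 0.170. None of these named genes is in the red cell lists used here.

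Rhob had -0.48, -0.93, -0.94 and -1.46 in brain, -0.86, -0.20, -0.31 and -0.87 in heart, and 1.33, -0.07, 0.79 and -1.50 in muscle of mice W, X, Y and Z. Across the 10 clones, the values in muscle of mouse Z ranged from -1.72 to -1.17, beside an Hba-a1 median of -1.57. In muscle of mouse W they ranged from 1.06 to 1.33, beside 1.25. They were chosen as nearest over these same values, so this closeness is a description of the choice.

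In all, 23 other clones were nearer than the farthest Hba-a1 clone, 13 with a symbol and 10 without. The clone of Nup155, a nuclear pore protein, ranked 13 at 0.184. Of the clones numbered between the first and last Hba-a1 clones of the run 15359 to 15560, 5 of 95 (5.26%) were among the 23, against 18 of 5899 (0.305%) elsewhere. The clones elsewhere included some just outside the run, namely 15351, 15562, 15589, 15633, 15638, 15647 and 15662. They also included 19761 and 19765, numbered close to Hba-a1 clone 19752. The share was not counted for these flanks. How clone numbers relate to places on the slide is not given, and what these clones bound was not tested.

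**Figure D4:**
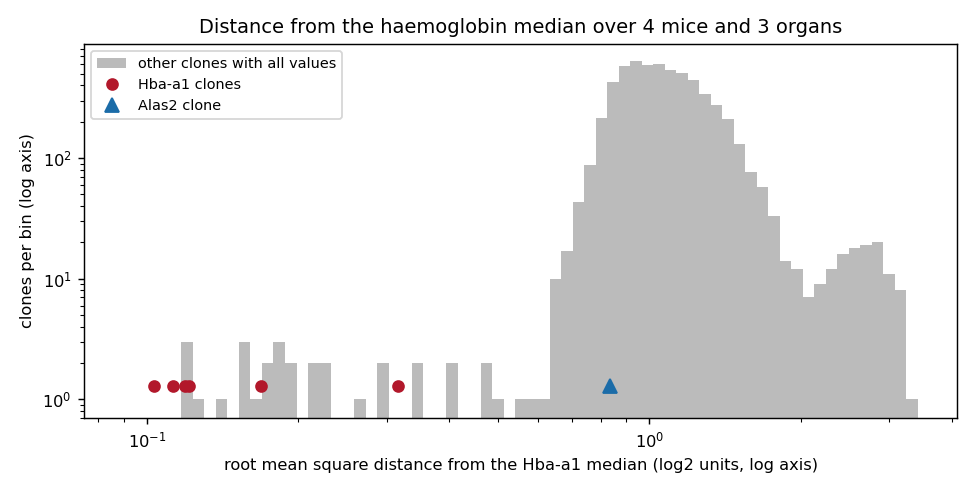
Number of clones (vertical log axis) by root mean square distance from the Hba-a1 median over 12 mouse and organ values (horizontal log axis, log2 units) for the 5994 other clones, with the Hba-a1 clones and Alas2 marked at an arbitrary height. The Hba-a1 clones and 23 other clones lie at or below 0.316, far from the bulk around 1.05, and Alas2 is at 0.837.

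Other genes of red cell biology were taken from 8 lists of haemoglobin chains, haem, iron, membrane, enzyme, maturation, transcription factor and erythropoietin signalling genes. As a set their median was near 0 in each organ. In brain somewhat more of them lay below 0, the side of Hba-a1, than of all fitted clones. Without the members, 86 of 150 clones (57.3%) were below 0 in brain with a median of -0.07, beside 52.2% and -0.02 over all fitted clones. In heart 70 of 156 (44.9%, beside 48.5%) were below 0, with a median of 0.03 beside 0.01. In muscle 66 of 148 (44.6%, beside 48%) were below 0, with a median of 0.02 beside 0.01. None of these clones was called by limma, while some passed an unadjusted p under 0.05. In brain these were 10 below 0 (6.67%) and 6 above (4%), beside 4.04% and 5.3% of all fitted clones. In heart they were 3 below (1.92%) and 4 above (2.56%), beside 2.82% and 2.4%. In muscle they were 0 below (0%) and 3 above (2.03%), beside 1.28% and 2.15%. The haemoglobin chain list added no gene to the members.

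By mouse, the list medians stayed nearer to 0 than haemoglobin where haemoglobin was far from it. In mouse Z they ran in brain from -0.46, for red cell enzymes and haemoglobin partners, to 0.14, for erythropoietin signalling, beside -1.59 for Hba-a1. Every red cell list with values except erythropoietin signalling was below 0 there. In each of these lists mouse Z was the lowest mouse in brain, as it was for Hba-a1. These small shared differences were not tested. In muscle of mouse W they ran from -0.43, for haem synthesis and breakdown, to 0.22, for erythroid transcription factors, beside 1.25. In muscle the haem list was therefore at its lowest in the mouse in which haemoglobin and Alas2 were highest.

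Single genes in these lists went either way, none of them called. The enzyme list had the lowest median in brain, -0.23, with Aldoa, a glycolytic enzyme, at -0.53 ± 0.24 (SD, n = 4). In brain the transcription cofactor Zfpm1, a partner of GATA1, was at 1.47 ± 0.68 (SD, n = 4, limma adjusted p = 0.518), above 0 in all 4 mice, as were 10.1% of clones. Cp, the plasma ferroxidase ceruloplasmin, was at 1.77 ± 0.56 there (SD, n = 3, limma adjusted p = 0.518). In heart Klf1, the erythroid activator, was below 0 in all 4 mice but with a wide spread, -1.50 ± 1.84 (SD, n = 4, limma adjusted p = 0.802). Pim1, a kinase of cytokine signalling, was at 0.65 ± 0.35 in heart (SD, n = 4), above 0 in all 4 mice, as were 9.59% of clones. Bpgm, which makes the haemoglobin effector bisphosphoglycerate, was at -0.47 ± 0.35 in heart (SD, n = 4), also below 0 in all 4 mice. In muscle Car2, a carbonic anhydrase of red cells, was at 1.14 ± 0.89 (SD, n = 4, limma adjusted p = 0.954), with 2.44 in mouse W and 0.63 in mouse Z. Mouse Z, the lowest for haemoglobin, was thus above the pool for Car2.

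Markers of other cells that blood and vessels bring into an organ were counted in the same way. Over white blood cell, platelet and endothelial markers 26 of 42 clones (61.9%) were below 0 in brain, with a median of -0.12. Over all fitted clones these were 52.2% and -0.02, and over the red cell lists 57.3% and -0.07. In heart 26 of 49 (53.1%, beside 48.5%) were below 0, with a median of -0.03 beside 0.01. The lists went opposite ways there, with 15 of 20 endothelial clones (75%) below 0 (median -0.21) and 8 of 23 white blood cell clones (34.8%, median 0.19). The endothelial median in heart was thus on the side of Hba-a1, but its order of the mice was not that of the Hba-a1 median. By mouse it was 0.14 in W, -0.08 in X, -0.26 in Y and -0.01 in Z. Mouse W, with the lowest Hba-a1 median in heart, was thus the highest here, although on Cy5 arrays mouse Y was lower for Hba-a1. In muscle 17 of 38 (44.7%, beside 48%) were below 0, with a median of 0.01 beside 0.01. Of all these clones, 0 were called. In muscle of mouse Z, with haemoglobin at -1.57, the medians were 0.00 for white blood cells, 0.13 for platelets and 0.29 for endothelium, and in mouse W, with haemoglobin at 1.25, they were 0.19, -0.06 and -0.07. The white cell and platelet list medians were thus within 0.2 of 0 in both mice, although single genes were not, such as the leukocyte antigen gene Ptprc at -2.95 in W and -1.23 in Z, and few clones stand behind the platelet median. Their part in the haemoglobin ratios was not tested.

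**Figure D5:**
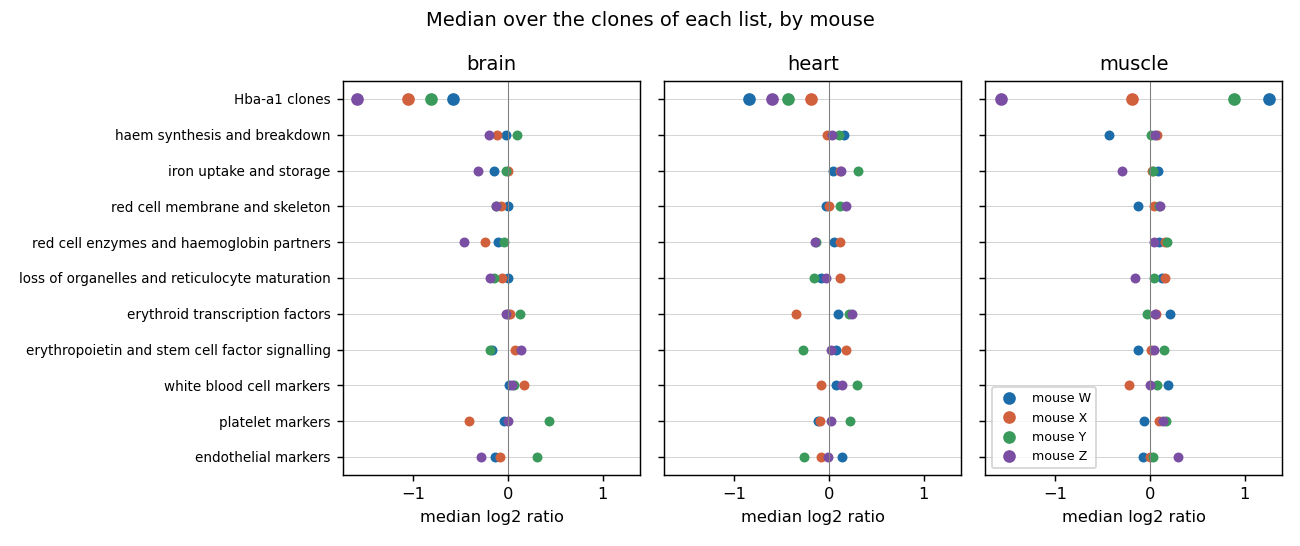
Median log2 ratio of mutant over pool (horizontal axis) over the clones of each list (rows) for each mouse (points), with the Hba-a1 clones in the top row. The Hba-a1 medians reach from -1.59 to -0.58 in brain and from -1.57 to 1.25 in muscle, while no list median of a mouse lies beyond -0.46 or 0.43.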

How the data were processed

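The deposited values are log2 ratios of 20794 cDNA clones, 1 column per array, which the authors had scanned with GenePix and normalized with MIDAS. The normalization method, the log base and the direction are not stated in the sources used here. The log base was read from the values, and the swapped arrays had evidently been turned already, since values beyond 10 lay only above 0 on all 12 Cy5 arrays and only below 0 on all 12 Cy3 arrays. The labels list the pooled animals partly as a range of numbers that overlaps mice W and X, and labels and methods differ by 1 animal in its size. The pool is 1 control sample, so p-values leave out the control spread.

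Arrays of a mouse were averaged. Clones with both arrays of at least 3 mice were compared with 0 by limma 3.58.1 (R 4.3.3, lmFit, eBayes, Benjamini-Hochberg, adjusted p under 0.10), with organs fitted apart and differences between organs fitted jointly. SAM, the methods' test, was rewritten and run as an alternative at 10% false positives. The code was tested on simulated data. Lists, members and rules were chosen with earlier results of these data known. Genes named were the members, the 10 clones nearest to the Hba-a1 median, Nup155, and examples among the 3 genes of each list farthest from 0 in mean ratio in an organ. All 12771 gene identifiers of the array matched the RefSeq annotation of GRCm38.p6.

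All 3 organs came from the same animals, so the samples are paired by mouse. Between organs, the correlation over clones of a mouse's departures from the organ mean was -0.008 to 0.058. Signal over background is not given, so precision was judged from the number of arrays and the spread between them. Plots were made in Python 3.11.15 (matplotlib 3.10.9).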

Additional observations from a re-analysis of the deposited data

Results flagged for a closer look

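Among 61 sets of 4 mouse values, those of member clones, the Hba-a1 median and the clones nearest to it, that were examined for a sample far from the others, 1 stood out, and chance alone picks about 1 in 20. It was Tspan33 clone 4903 in muscle of mouse X, at -2.85, where the other 3 mice had -0.11, -0.04 and 0.10. Its gap to the nearest mouse was 0.928 of the whole range. The arrays of this mouse were -0.96 with the mutant in Cy5 and -4.74 with the mutant in Cy3, and the second Tspan33 clone had 0.38 in the same mouse and organ.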

How the results depend on the processing

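The Hba-a1 median moved by less than the spread between mice under 34 alternatives and by more under 2. Some of the 34 could not move it, since the Hba-a1 clones had values on every array and none beyond 10. These were accepting 1 array of a mouse, needing both arrays of all 4 mice, and setting values beyond 10 as missing. With the sign of the swapped arrays turned the median became -0.059 in brain and -0.039 in heart, since like values of a pair then cancel. Leaving out each mouse gave -1.15 to -0.81 in brain, -0.62 to -0.41 in heart and -0.29 to 0.65 in muscle, where the mean was also -0.02 on Cy3 arrays alone. Of the single clone means, 395 moved by less than the spread between mice and 29 by more, mostly with the sign turned or for Bnip3l on 1 dye.

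Calls were 0 in each organ and between organs, and leaving out a mouse kept them at 0 to 0. In brain, 9 clones were called with 8 arrays and the mouse as a random block, 13 by SAM on single arrays and 27 by SAM with another draw of sign flips. That draw was added after seeing the data because it gave another count, and its 27 calls held 5 member clones, whereas the 13 held 0 members. In heart, 1 clone was called with the random block, 1 by SAM on mouse means, 4 by SAM on single arrays in both draws and 1 where both arrays of all 4 mice were needed, and 0 of these were members. The cause of these differences was not tested. The replicate block (mouse) between organs left the calls at 0 and changed no other call. Depth and signal are not given in the files, and the 4 mice per organ limit the precision.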

Other observations

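In muscle 3 white blood cell genes were below the pool, none of them called. The whole list was not, with 9 of 21 clones (42.9%, beside 48% of all fitted clones) below 0 and a median of 0.02. Ptprc, the leukocyte antigen CD45, was at -1.38 ± 1.12 (SD, n = 4, limma adjusted p = 0.954), below 0 in all 4 mice, as were 4.92% of clones. Camp, a neutrophil antimicrobial peptide, was at -1.09 ± 0.45 and Cd3d, a T cell receptor subunit, at -0.95 ± 0.37 (SD, n = 3 each, limma adjusted p = 0.954 for both). All 3 were below 0 in each measured mouse. These 3 had the means farthest from 0 in that list.

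Among the clones near the haemoglobin pattern but past the 10 nearest were C1qtnf6 at a distance of 0.175, Il6st at 0.181, Mark3 at 0.196 and Cdca8 at 0.197, which were named after their values were seen.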
